A study of Mus musculus with 12 samples.

Results

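Cytokine feedback genes of the SOCS, CIS, PIM and BCL3 type were followed through sorted CD8+ T cells of lupus-prone mice. The 7 genes *Socs1*, *Socs2*, *Socs3*, *Cish*, *Pim1*, *Pim2* and *Bcl3* were chosen by name, and each had a row among the 18992 genes of every table. The mice were NZB/W F1, the offspring of NZB and NZW parents, which spontaneously develop lupus nephritis, and the methods of the study describe them as female. PD-1+CD44+CD8+ T cells were taken from the spleen of mice aged 12 weeks (12W spleen) and from the spleen (28W spleen) and the kidney (28W kidney) of mice aged 28 weeks. No group carried an engineered allele or a treatment. The kidneys were digested with collagenase, and no such digestion is described for the spleens. Each group was 1 pooled table for 4 labelled samples (L001 to L004, a numbering that sequencing lanes also carry, so that they may be lanes of 1 library), with no map from cells to samples, and how many mice contributed to each is not stated. There was therefore no replicate and no test between groups, and the intervals below cover counting error only.

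Cytokines of the interleukin and interferon families bind receptors that carry Janus kinases (JAKs), and the JAKs activate STAT transcription factors, which enter the nucleus and switch on target genes. Among the targets are genes that feed back on the signal. SOCS proteins and CIS, the product of *Cish*, share an SH2 domain and a SOCS box and damp signalling at the receptor or at the JAK. The PIM proteins are constitutively active serine/threonine kinases that promote survival and growth, and BCL3 is a nuclear member of the IκB family that binds NF-κB p50 and p52 dimers and modulates their transcription. In CD8+ T cells these genes are known targets of common gamma chain cytokines, IL-6 family cytokines, interferons and the T cell receptor.

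The motif that STAT dimers bind, TTCNNNGAA, reads the same on both strands, and it was looked for in RefSeq promoter windows (GRCm38.p6) of 300 bases, 250 before and 50 after a gene's start. Of the 7 genes, 6 had such a window, and 2 of those 6 held the motif, *Cish* and *Socs3*. Of all 32851 windows, 8.30% held at least 1 motif and 0.457% held at least 2. The *Cish* window held 2 motifs, which began at bases 1 and 12 counted from the start and were separated by 2 bases, so that the pair spanned 20 bases. The *Socs3* window held 1, which began at position −154 from the start. They are shown because *Cish* had the largest organ ratio of the 7 and *Socs3* the largest age ratio, both on the log2(CPM + 1) scale (by plain fold the organ ratio of *Socs2* was larger), with the motifs in capitals and in the direction of transcription.
Cish, chr9:107296655-107296682 (+ strand): agttTTCCTGGAAagTTCTTGGAAatct
Socs3, chr11:117969482-117969550 (− strand): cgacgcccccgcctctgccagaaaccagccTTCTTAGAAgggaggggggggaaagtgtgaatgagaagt
All 28 bases of the *Cish* stretch lay in an annotated exon and 0 bases of the *Socs3* stretch did. Positions count from the starts of the RefSeq windows, which differ from the starts of the gene coordinates given below. Both stretches lay within those gene coordinates. The windows of *Socs1*, *Pim1*, *Pim2* and *Bcl3* held no match to these letters. A match describes the letters and not binding.

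The 12W spleen cells numbered 6894, the 28W spleen cells 6481 and the 28W kidney cells 7135, divided by the authors into 10, 11 and 12 clusters, with between 29937384 and 34742303 unique molecular identifiers (UMIs) per library and a median of 3501 to 4128 per cell. Levels are given as UMIs per 1000000 UMIs of the library or cluster (CPM), and 3 UMIs in a library correspond to 0.0864 to 0.1002 CPM. Each library was clustered on its own, so a cluster number does not name the same cells in different libraries. All 6 T cell and sort genes examined (*Cd8a*, *Cd8b1*, *Cd3e*, *Cd3d*, *Cd44* and *Pdcd1*) were present in each library, at a summed 3711, 3609 and 4507 CPM. In 8 of the 33 clusters a summed list of B cell, myeloid, tubule or erythroid genes reached at least 500 CPM and at least 5 times the median cluster. These marked clusters held 15.4% of the cells of 12W spleen (cluster 3), 9.61% of 28W spleen (clusters 8 and 10) and 34.6% of 28W kidney (clusters 2, 7, 8, 11 and 12), and results are given without them where that matters. The tables hold cluster means only, so doublets could not be called here, and their treatment by the authors is not given in the sources used here. Between 52 and 66 cell barcodes were shared by each pair of libraries, at most 1.02% of the cells of a library.

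From 12 to 28 weeks in the spleen, all 7 genes were higher in the older library. *Socs3*, *Bcl3* and *Socs1* passed a 2-fold difference, where *Pim1*, *Pim2* and *Cish* did not. On the log2(CPM + 1) scale 3 of 7 were higher by 2-fold or more, against 1.84% of the 12412 genes tested, and none was lower by 2-fold or more, against 0.935%. The median log2 ratio of the 7 was 0.85, which was the value of *Pim1*, beside −0.08 over all genes, of which 37.6% had a ratio above 0. A summed list of 16 dissociation and immediate-early genes (*Fos*, *Jun*, *Dusp1*, *Hspa1a* and others, all detected in every library) was also higher in 28W spleen, at 3661 CPM against 2261 CPM in 12W spleen, and over clusters it ranged from 2696 to 6410 CPM against 1609 to 4409 CPM. Of its 16 genes, 7 were higher and 1 lower by 2-fold or more, with a median log2 ratio of 0.78. The part of this in the age differences was not tested.

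Between spleen and kidney at 28 weeks the 7 genes separated. *Socs2* and *Cish* were more than 4-fold higher in the kidney, *Pim2* was 2.74-fold lower, and *Socs3* and *Bcl3* were at nearly the same level in both libraries. In all, 2 of 7 were higher by 2-fold or more, against 8.77% of the 13189 genes tested, and 1 was lower by 2-fold or more, against 1.23%. The median log2 ratio was 0.41, the value of *Socs1*, beside 0.11 over all genes, of which 63.5% were above 0. This median depended on the clusters used and was 0.02 without the marked clusters. The dissociation list was at 3661 CPM in 28W spleen and 4510 CPM in 28W kidney, where only the kidneys are described as digested. Of its 16 genes, 4 were higher and 1 lower by 2-fold or more, with a median log2 ratio of 0.21. Over unmarked clusters 3 were higher and 4 lower, with a median of −0.10. The genes did not move together: *Hspa1a* was 26.9-fold and *Hspa1b* 11.3-fold higher in the kidney, whereas *Fos* was 2.35-fold lower. The part of this in the organ differences was not tested. The 28W spleen library is common to both comparisons, so the ratios of age and of organ are not independent.

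**Figure D1:**
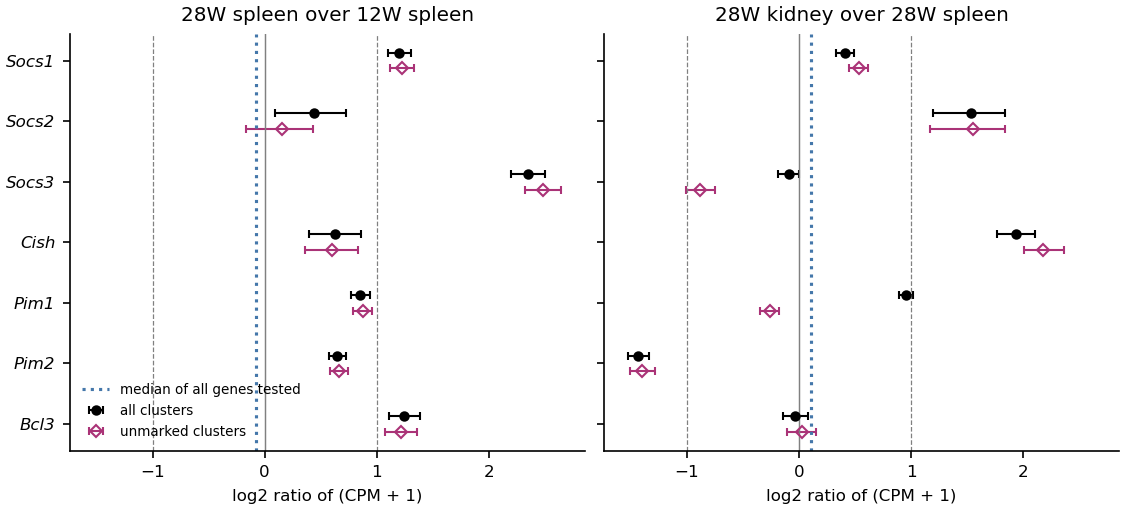
Log2 ratio of (CPM + 1) of the 7 genes between libraries, 28W spleen over 12W spleen on the left and 28W kidney over 28W spleen on the right, over all clusters (black circles) and over unmarked clusters (purple diamonds), with 95% counting intervals; the dotted blue line is the median of all genes tested and the dashed lines are 2-fold. All 7 genes lie above 0 on the left, whereas on the right *Cish* and *Socs2* lie beyond +1, *Pim2* lies beyond −1, and *Pim1* and *Socs3* shift to the left when marked clusters are left out.

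*Socs1* (ENSMUSG00000038037, GRCm38 chr16:10782240-10785536, − strand) encodes a direct inhibitor of JAK kinase activity that restrains interferon-γ and common gamma chain cytokine signals. It was at 29.1 CPM (95% interval 27.4 to 31.0, 1012 UMIs) in 12W spleen, 68.3 CPM (65.5 to 71.2) in 28W spleen and 91.1 CPM (87.7 to 94.6) in 28W kidney. *Socs1* was thus 2.35-fold higher with age (2.18 to 2.53) and 1.33-fold higher in the kidney than in the spleen (1.26 to 1.41). Its clusters ranged from 21.2 to 51.1 CPM in 12W spleen, from 37.1 to 121 CPM in 28W spleen and from 28.9 to 159.9 CPM in 28W kidney. The ranges overlapped in both comparisons, although 6 of the 11 clusters of 28W spleen lay above every cluster of 12W spleen, as did at least 6 in 1.29% of the genes tested. In 28W spleen the highest values were in cluster 4 (121 CPM, 109.9 to 133) and cluster 2 (93.1 CPM), and in the kidney in cluster 8 (159.9 CPM), cluster 10 (152 CPM), cluster 5 (133 CPM) and cluster 6 (131 CPM). Without marked clusters *Socs1* was at 28.9, 68.7 and 99.8 CPM in the 3 libraries, and the organ ratio was 1.45. The lowest cluster of 12W spleen (cluster 10) and of 28W spleen (cluster 6), and the lowest but 1 of 28W kidney (cluster 11, at 29.6 CPM), were also the clusters highest in proliferation genes. The same clusters had the most UMIs per cell in their libraries, and the parts of the 2 traits were not tested. Most steps in the order of clusters were within counting error, and neighbours were apart beyond it in 0 of 9 steps in 12W spleen, 1 of 10 in 28W spleen and 2 of 11 in 28W kidney.

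*Socs3* (ENSMUSG00000053113, chr11:117966079-117970047, − strand) encodes an inhibitor that docks on gp130, the shared receptor chain of the IL-6 family, and on related receptors. It was at 10.6 CPM (9.56 to 11.8, 369 UMIs) in 12W spleen, 58.2 CPM (55.6 to 60.9) in 28W spleen and 54.6 CPM (52.0 to 57.4) in 28W kidney. Its 5.48-fold difference with age (4.90 to 6.14) was the largest of the 7 on the log2(CPM + 1) scale, at 2.35. In 12W spleen its clusters fell into a high set of 3 (cluster 2 at 29.2, cluster 6 at 26.8 and cluster 3 at 23.5 CPM) and a low set from 1.40 to 8.91 CPM. In 28W spleen the clusters ran from 17.2 CPM (cluster 6) to 94.6 CPM (cluster 1). All but 1 of these, 10 of 11, lay above every cluster of 12W spleen, and the exception was cluster 6, the cluster highest in proliferation genes. At least 10 lay above in 0.0725% of the genes tested. Between organs at 28 weeks the library levels were close (0.939-fold, 0.878 to 1.004), but the clusters were not. In the kidney 52.3% of the *Socs3* UMIs came from cluster 8, at 305 CPM, while the other 11 clusters ranged from 11.2 to 69.7 CPM. Over unmarked clusters *Socs3* was at 31.6 CPM in the kidney and 59.0 CPM in 28W spleen, 1.87-fold lower in the kidney (1.70 to 2.05).

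*Cish* (ENSMUSG00000032578, chr9:107296026-107302784, + strand) encodes CIS, a STAT5 target that binds cytokine receptors and is known in CD8+ T cells as a brake on T cell receptor signalling. It was at 5.73 CPM (4.96 to 6.58, 199 UMIs) in 12W spleen, 9.40 CPM (8.37 to 10.5, 301 UMIs) in 28W spleen and 38.7 CPM (36.6 to 41.0, 1160 UMIs) in 28W kidney. The organ difference was 4.12-fold (3.63 to 4.70) and the age difference 1.64-fold (1.37 to 1.97). In the kidney 11 of 12 clusters lay above every cluster of 28W spleen, as did at least 11 in 0.197% of the genes tested and all 12 in 0.0758%. The exception was kidney cluster 11 at 14.2 CPM, a marked cluster and the one highest in proliferation genes, against a highest spleen cluster of 18.1 CPM. Among unmarked clusters the ranges did not overlap, at 32.6 to 57.2 CPM in the 7 kidney clusters and 1.25 to 18.1 CPM in the 9 clusters of 28W spleen, where 0.531% of the genes tested had such a separation. This separation rests on leaving out kidney cluster 11, where *Cd3e* was at 1159 CPM. Cluster 6 of 28W spleen, the cluster highest there in proliferation genes, is unmarked and stayed in, with *Cish* at 4.81 CPM. Without the marked clusters the fold was 4.91 (4.30 to 5.62), so the *Cish* difference was as large without the clusters that carried genes of other cell types. *Cish* spread widely over the spleen clusters at either age. In 12W spleen clusters 7 and 2 stood at 12.4 and 11.1 CPM and the other 8 at 2.48 to 4.93 CPM, while in 28W spleen clusters 3 and 7 were at 1.25 and 1.84 CPM and clusters 2 and 1 at 18.1 and 16.5 CPM.

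*Socs2* (ENSMUSG00000020027, chr10:95385362-95417180, − strand) encodes the family member best known for limiting growth hormone signalling. It was the least abundant of the 7 in UMIs, with 10 UMIs (0.288 CPM, 0.138 to 0.529) in 12W spleen, 24 UMIs (0.749 CPM, 0.480 to 1.12) in 28W spleen and 122 UMIs (4.08 CPM, 3.38 to 4.87) in 28W kidney. Its kidney level was 5.44-fold above 28W spleen (3.49 to 8.81). The age ratio of 2.60 had an interval of 1.20 to 6.10 and was 0.44 on the log2(CPM + 1) scale, under the 2-fold line. Without marked clusters it was 1.65 with an interval of 0.584 to 5.02, which includes no difference. In 28W spleen 13 of the 24 UMIs, 54.2%, came from cluster 10, a marked cluster with 23984 CPM of the B cell list. In the kidney the highest level was in cluster 7, also marked, with 27 UMIs and 18.2 CPM. Over unmarked clusters *Socs2* was at 0.215, 0.355 and 2.97 CPM in the 3 libraries in the same order, and the organ ratio was 8.35 with an interval of 4.34 to 17.6. No neighbours in the order of clusters that both held a UMI were apart beyond counting error for *Socs2*. Steps to a cluster without a UMI were not compared, which leaves cluster differences within 12W spleen largely unexamined. There 5 of the 10 UMIs came from cluster 2, which held 11.2% of the UMIs of the library.

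**Figure D2:**
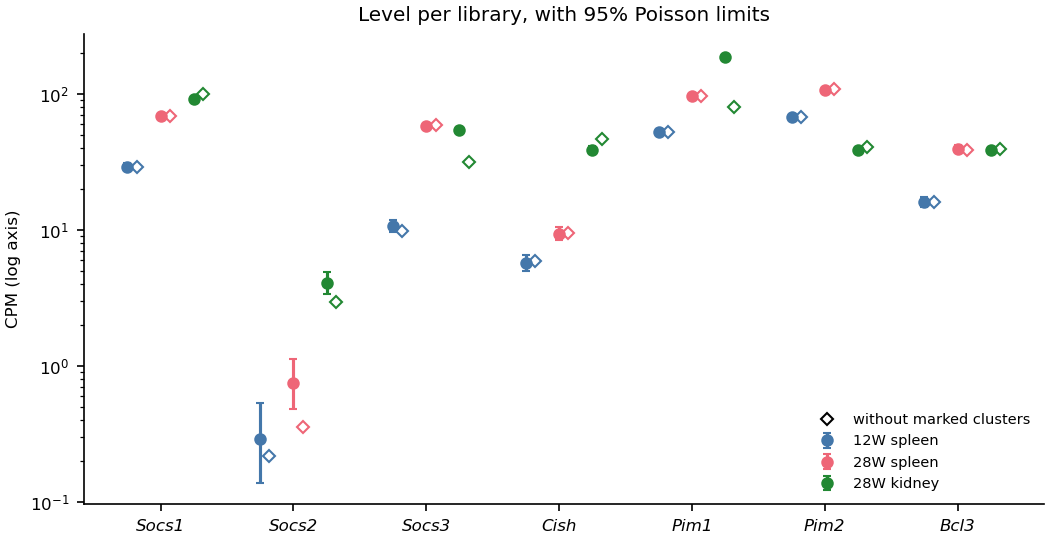
Level of each of the 7 genes in CPM (log axis) in the spleen at 12 and 28 weeks and the kidney at 28 weeks, over all clusters (filled circles, with exact 95% Poisson intervals) and over unmarked clusters (open diamonds). The gap between filled and open symbols is wide for *Pim1* and *Socs3* in the kidney and narrow for *Cish*, *Pim2* and *Bcl3*.

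*Pim1* (ENSMUSG00000024014, chr17:29490753-29496112, + strand) encodes the founding PIM kinase, induced by STAT3 and STAT5. It was at 52.9 CPM (50.5 to 55.4, 1837 UMIs) in 12W spleen, 96.4 CPM (93.1 to 99.9) in 28W spleen and 188 CPM (183 to 193, 5621 UMIs) in 28W kidney. With age it was 1.82-fold higher (1.72 to 1.93), and 5 of 11 clusters of 28W spleen exceeded the highest cluster of 12W spleen (105.5 CPM), as did at least 5 in 2.32% of the genes tested. The kidney library was 1.95-fold above 28W spleen (1.86 to 2.04), but kidney cluster 8 alone held 3328 *Pim1* UMIs, 59.2% of the total, at 1188 CPM (1148 to 1229). The next kidney cluster stood at 177 CPM, and the other 11 ranged from 52.5 to 177 CPM, within the range of 28W spleen (50.4 to 184 CPM). Over unmarked clusters *Pim1* was at 80.1 CPM in the kidney and 96.2 CPM in 28W spleen, 0.833-fold (0.783 to 0.885). The direction of the organ difference in *Pim1* thus turned on the marked clusters.

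*Pim2* (ENSMUSG00000031155, chrX:7878262-7883432, + strand) encodes a further PIM kinase with a known role in survival and protein synthesis in T cells. It was at 67.3 CPM (64.6 to 70.1, 2339 UMIs) in 12W spleen, 106 CPM (102 to 110) in 28W spleen and 38.6 CPM (36.5 to 40.9, 1157 UMIs) in 28W kidney. *Pim2* was the only one of the 7 lower by 2-fold or more in the kidney, at 2.74-fold (2.56 to 2.93), after a 1.57-fold higher level with age (1.49 to 1.66). Among unmarked clusters every kidney cluster (23.5 to 58.1 CPM) lay below every cluster of 28W spleen (74.3 to 153 CPM), as did 0.235% of the genes tested. Among all clusters, where 0.0152% of genes were separated in this direction, the ranges overlapped, because the marked clusters 10 and 8 of 28W spleen stood at 34.7 and 60.0 CPM and kidney cluster 8 at 67.1 CPM. In 12W spleen the highest values were 133 CPM in cluster 8, which rested on 38 UMIs in a cluster with 8.98% mitochondrial UMIs, and 98.5 CPM in cluster 4. Its lowest clusters were cluster 7 in 12W spleen (31.5 CPM) and clusters 12, 7, 11 and 1 in the kidney (11.6, 20.9, 22.5 and 23.5 CPM). Neighbours in the order were apart beyond counting error in 3 of 9 steps in 12W spleen, 1 of 10 in 28W spleen and 1 of 11 in 28W kidney.

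*Pim1* and *Pim2*, kinases of one family, ordered the clusters differently. In 12W spleen *Pim1* was lowest in clusters 5 and 4 (23.4 and 27.2 CPM), where *Pim2* was at 80.3 and 98.5 CPM, and in 28W spleen *Pim1* was lowest in cluster 7 (50.4 CPM), where *Pim2* was at 127 CPM. Clusters 3 and 7 of 28W spleen, at 153 and 127 CPM of *Pim2*, were also the lowest in *Cish*. Across the 33 clusters, on log2(CPM + 1) centred within each library, *Pim2* went with a summed list of memory genes (*Lef1*, *Satb1*, *Tcf7* and others) at r = 0.71, and at r = 0.77 across the 25 unmarked clusters. *Cish* went the other way with the same list, at r = −0.43 and r = −0.70. The memory list itself was at 1450 CPM in 12W spleen, 967 CPM in 28W spleen and 273 CPM in 28W kidney. Depth, the UMIs per cell, differed between clusters. It went with *Pim2* at r = −0.24 over all and −0.52 over unmarked clusters, and with *Cish* at −0.11 and −0.02. The part of depth in the correlations was not tested. Clusters of a library are not independent samples, so these correlations describe the clusters and carry no p.

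*Bcl3* (ENSMUSG00000053175, chr7:19808462-19822770, − strand) was at 16.1 CPM (14.8 to 17.5, 558 UMIs) in 12W spleen, 39.5 CPM (37.4 to 41.7, 1265 UMIs) in 28W spleen and 38.6 CPM (36.4 to 40.9, 1156 UMIs) in 28W kidney. The age difference was 2.46-fold (2.22 to 2.72), and the organ ratio was 0.978 (0.902 to 1.06). All 11 clusters of 28W spleen (31.2 to 72.3 CPM) lay above all 10 of 12W spleen (7.02 to 26.3 CPM), a separation seen in 2 of 12412 genes, 0.0161%. Among unmarked clusters it was seen in 0.0322% of genes, *Bcl3* included. The lowest value, in cluster 8 of 12W spleen, rested on 2 UMIs, and the next, cluster 6 at 8.58 CPM (4.90 to 13.9), lay below cluster 9 at 26.3 CPM (19.8 to 34.4) beyond counting error. In the kidney the clusters ranged from 27.1 to 54.2 CPM, and no 2 neighbours in the order were apart beyond counting error in any library. A cluster level is a mean over cells, so fewer cells with a transcript and less RNA per cell cannot be told apart here for any of the 7 genes.

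**Figure D3:**
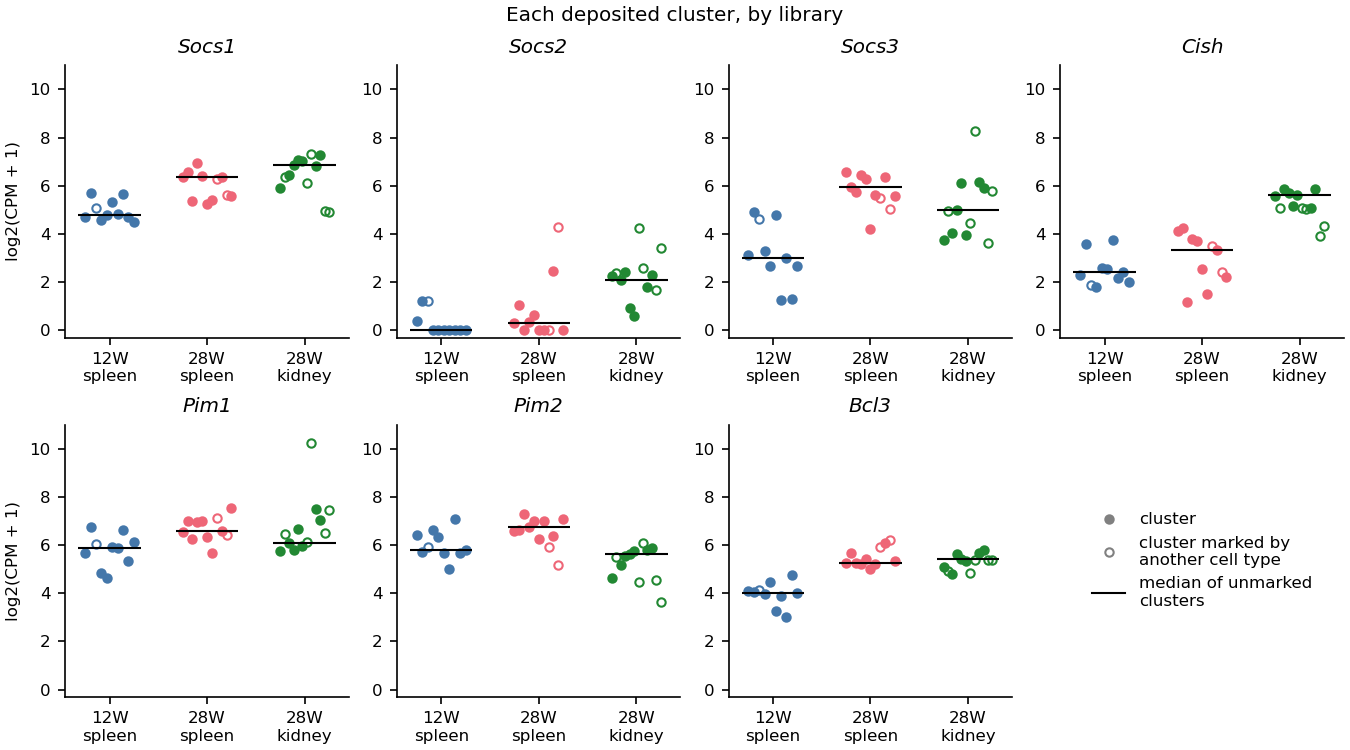
Level of each gene in every cluster as log2(CPM + 1), 1 column of points per library, with marked clusters as open circles and the median of unmarked clusters as a line. The 28W spleen points of *Bcl3* all lie above those of 12W spleen. The unmarked kidney points of *Cish* lie above and those of *Pim2* below the unmarked 28W spleen points. Kidney cluster 8 stands alone for *Pim1* (1188 CPM) and *Socs3* (305 CPM).

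**Figure D4:**
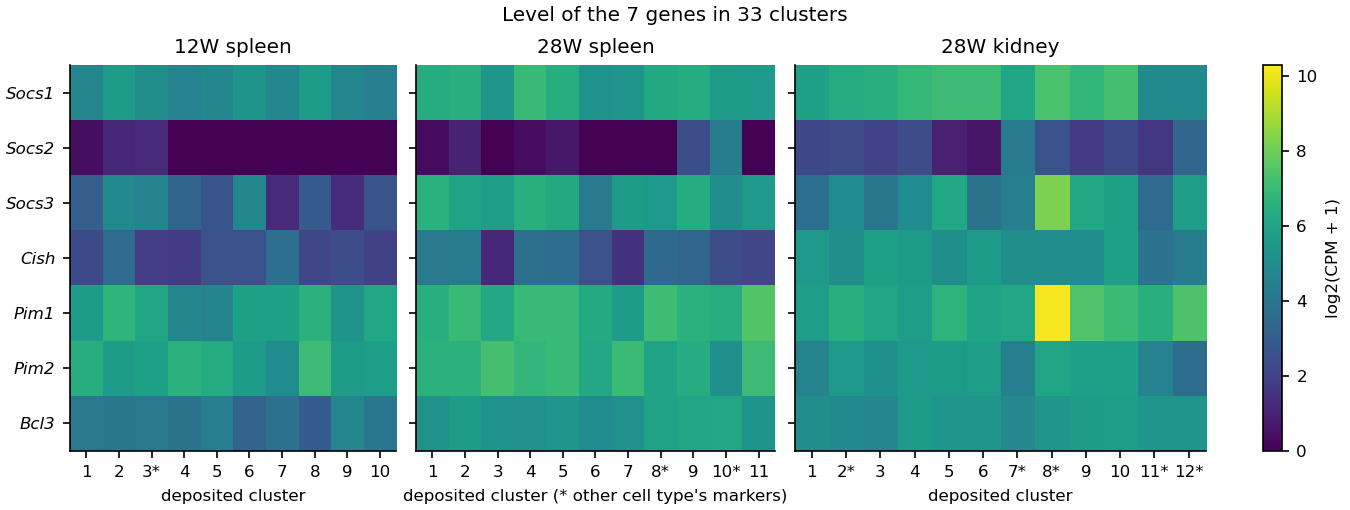
Levels of the 7 genes in the 33 clusters, as log2(CPM + 1), with clusters grouped by library and marked clusters carrying an asterisk. *Pim1* and *Socs3* peak in kidney cluster 8, and *Bcl3* is lower in the 12W spleen clusters than in those of 28W spleen.

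Kidney cluster 8 held 544 cells, 7.62% of the kidney library, and 9.36% of its UMIs. *Pim1* was 14.1-fold and *Socs3* 10.6-fold higher there than in the rest of the kidney library, and *Socs1* was 1.90-fold higher, at 159.9 CPM. A 4-fold excess in this cluster was shared by 321 of 12444 genes, 2.58%. B cell genes were high in it, with *Cd79a* at 1074 CPM (median of the other kidney clusters 1.39) and *Cd74* at 8718 CPM, and all 6 genes of the B cell list summed to 12874 CPM. T cell genes were below the median of the other kidney clusters, with *Cd3e* at 613 CPM (1159), *Cd8a* at 168 CPM (768) and *Pdcd1* at 24.6 CPM (116). *Cd3e* was lower still in kidney clusters 2 and 12 (400 and 358 CPM), and *Cd8a* in kidney cluster 12 (160 CPM). The dissociation list was at 9345 CPM in cluster 8, above the 2979 to 6380 CPM of the other kidney clusters. The part of the B cell genes and of the dissociation genes in the *Pim1* and *Socs3* levels of cluster 8 was not tested. Other marked clusters rich in B cell genes had lower levels, with *Pim1* at 83.8 CPM and *Socs3* at 31.8 CPM in cluster 10 of 28W spleen (B cell list at 23984 CPM), and at 172 and 53.9 CPM in kidney cluster 12 (33512 CPM). Leaving out cluster 8 alone gave a kidney level of 84.5 CPM for *Pim1* and a *Socs3* level 2.03-fold below 28W spleen (1.86 to 2.20).

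Across the 33 clusters the dissociation list went with *Pim1* at r = 0.70, with *Socs3* at 0.46 and with *Socs1* and *Pim2* at 0.41, and not with *Cish* (0.04) or *Bcl3* (−0.07). Across the 25 unmarked clusters these values were 0.65 for *Pim1*, 0.19 for *Socs3*, 0.41 for *Socs1*, 0.39 for *Pim2*, 0.03 for *Cish* and −0.02 for *Bcl3*. Among the 7 genes *Socs1* and *Cish* were the most alike pair at r = 0.66 (0.63 over unmarked clusters), followed over all clusters by *Socs3* and *Pim1* at 0.65 (0.47). Over unmarked clusters the next pairs were instead *Socs1* and *Socs3* at 0.62 (0.53 over all clusters) and *Socs1* and *Pim1* at 0.54 (0.36). *Cish* and *Pim2* were at −0.06 over all clusters and −0.46 over unmarked clusters. *Bcl3* was between −0.18 and 0.27 with each of the other 6.

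The genes whose cluster pattern was most like that of each member were taken from 9052 genes with at least 100 UMIs in every library. For *Pim2* they were *Tcf7* (r = 0.89), a transcription factor of naive and memory T cells, *Foxo1* (0.88), which maintains quiescence, and *Dgka* (0.87), a diacylglycerol kinase. For *Socs3* they were *Klf2* (0.88), which controls T cell egress, *Junb* (0.80), an AP-1 subunit, and *Gpr132* (0.77). For *Pim1* they were *Fosl2* (0.80), another AP-1 subunit, *Nfkbia* (0.80), an NF-κB inhibitor, and *Junb* (0.79). The likeness of *Pim2* to *Dgka* (0.86) and of *Socs3* to *Klf2* (0.85) was nearly as high over unmarked clusters. The others were lower there. *Pim2* was at 0.81 with *Tcf7* and 0.79 with *Foxo1*, and *Socs3* at 0.68 with *Junb* and with *Gpr132*. *Pim1* was at 0.69 with *Fosl2*, 0.52 with *Nfkbia* and 0.57 with *Junb*. For *Cish* they were *Tnfsf14* (0.74), which encodes the cytokine LIGHT, *Btbd19* (0.73) and *Spryd7* (0.71), all at 0.74 or more over unmarked clusters. For *Socs1* they were *Dtx1* (0.76), a Deltex family E3 ligase, *Tdrp* (0.75) and *Klhl21* (0.75). Over unmarked clusters these were at 0.67, 0.58 and 0.62 and ranked only 31, 115 and 70. *Bcl3* had no close match, with *Pqbp1* (0.61), *Tbc1d25* (0.60) and *Ddx28* (0.57) first. The values for *Socs2*, with *Napsa* first at 0.77 and *Prkra* (0.75) and *Rogdi* (0.74) next, rested on few UMIs and were 0.34 to 0.47 over unmarked clusters.

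The signalling machinery upstream of the 7 genes differed little at the level of RNA. None of the 11 JAK and STAT genes passed 2-fold in either comparison, with median log2 ratios of 0.18 for age and −0.15 for organ. *Stat4*, which signals for IL-12, had the lowest age ratio, at 119 CPM in 12W spleen and 96.8 CPM in 28W spleen (log2 ratio −0.29). In the organ comparison *Jak2* was highest (44.7 CPM in spleen, 57.3 in kidney, 0.35) and *Stat5b* lowest (55.4 and 34.0 CPM, −0.69). These differences are small beside those of *Cish* and *Pim2*.

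Of 18 genes for receptors that use JAKs tested with age, 1 was higher (*Il15ra*) and 1 lower (*Ifngr2*) by 2-fold or more, neither of them at 10 CPM, and the median log2 ratio was 0.01. The highest and lowest of those at 10 CPM were *Il10ra*, at 34.4 and 69.1 CPM (0.99), and *Il6st*, which encodes gp130, at 45.6 and 25.6 CPM (−0.81). Of 19 tested by organ, 2 were higher (*Il12rb1* and *Ifngr2*) and 3 lower, with a median of 0.34. The 3 lower receptors were *Il7r* (348 CPM in 28W spleen, 161 in 28W kidney, −1.10), *Il6ra* (35.0 and 13.5 CPM, −1.32) and *Il6st* (25.6 and 11.9 CPM, −1.05). *Il12rb1*, a chain of the IL-12 receptor, was higher in the kidney, at 6.12 and 17.8 CPM (1.40). Over unmarked clusters the *Il7r* ratio was −0.77 and that of *Ifngr2* turned from 1.04 to −0.87, and the counts past 2-fold were 2 higher and 1 lower with age and 1 higher and 2 lower by organ.

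Among cytokines that signal through JAKs, 4 genes could be tested with age and 5 by organ, with 1 (*Ifng*) and 2 (*Il2* and *Il10*, both under 10 CPM) higher by 2-fold or more and none lower. *Ifng*, the interferon-γ gene, was at 10.0 CPM in 12W spleen, 63.5 CPM in 28W spleen and 85.0 CPM in 28W kidney, with log2 ratios of 2.55 for age and 0.41 for organ. *Socs1*, an inhibitor of its signal, had log2 ratios of 1.20 and 0.41 in the same comparisons. The median of the cytokine list was 0.51 with age and 0.78 by organ.

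Other negative regulators differed less than the 7 genes with age. Of 15 such genes (the remaining SOCS genes, PIAS proteins, phosphatases, *Sh2b3* and *Usp18*), 1 was higher by 2-fold or more with age and none by organ, and the medians were −0.04 and 0.11, close to those of all genes. The exception was *Usp18*, an interferon-induced inhibitor of the interferon receptor, at 19.6 CPM in 12W spleen and 64.0 CPM in 28W spleen (1.66), whereas *Ptpn6*, the phosphatase SHP-1, was lowest at −0.53. By organ *Pias3* was highest at 0.46, and *Sh2b3* was lowest of those at 10 CPM, at −0.38.

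Other genes that STATs are known to induce were divided. None of 12 passed 2-fold with age, and 3 of 12 were higher by organ, with medians of −0.04 and 0.22. *Id2*, a regulator of effector CD8+ T cells, was at 135 CPM in 28W spleen and 477 CPM in 28W kidney (1.81). *Prdm1*, which encodes BLIMP-1, was at 1.999 and 12.5 CPM (2.17), and *Bcl2l1*, which encodes BCL-XL, at 6.46 and 14.7 CPM (1.08). With age *Irf1*, an interferon-induced factor, was highest, at 101 CPM in 12W spleen and 155 CPM in 28W spleen (0.62). *Myc* ran opposite to all 7 feedback genes with age, at 153 CPM in 12W spleen, 79.3 CPM in 28W spleen and 42.1 CPM in 28W kidney (−0.94 and −0.90).

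The NF-κB subunit and inhibitor genes, which include those for the BCL3 partners p50 and p52, showed no 2-fold difference among 10 genes in either comparison. Their medians were 0.13 for age and 0.26 for organ. *Nfkbiz*, an atypical IκB gene like *Bcl3*, had the highest age ratio at 0.77, and *Nfkbib* the lowest at −0.14. By organ *Rel* was highest, at 33.8 CPM in 28W spleen and 59.9 CPM in 28W kidney (0.81), and its ratio was 0.03 over unmarked clusters, while *Rela* was lowest at −0.15. *Bcl3* therefore had an age ratio of 1.25 on the log2 scale where the highest of these 10 genes was at 0.77.

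**Figure D5:**
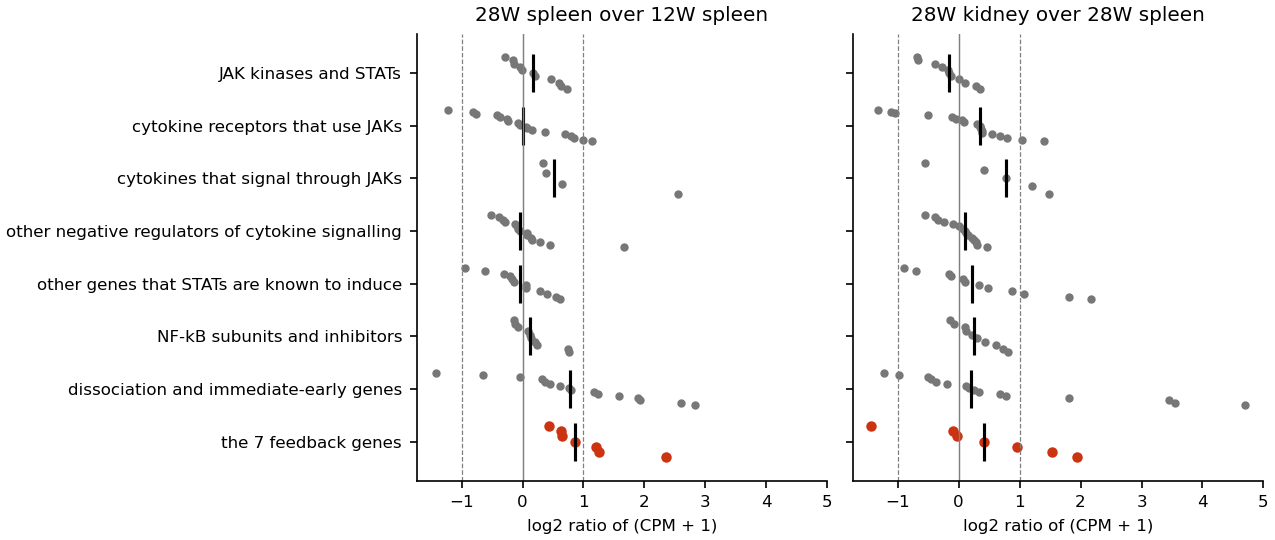
Log2 ratio of (CPM + 1) of each tested gene in the 7 pathway lists (points) with the list median (bar), for age and for organ, beside the 7 feedback genes (red), with dashed lines at 2-fold. The feedback genes have the highest median for age, at 0.85, followed by the dissociation list at 0.78, whereas the other negative regulators have medians of −0.04 and 0.11.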

How the data were processed

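Per the labels, single-cell RNA libraries of sorted T cells were made with 10x Genomics 5′ v2 chemistry, and submitters' processing notes name Cell Ranger 2.1.1, R 3.6.1 and GRCm38. The authors deposited, per library, the cluster of each barcode and a table of signal values, which are per-cluster mean UMIs of every gene, scaled so that a column sums to the median UMIs per cell. Log2 fold changes and adjusted p-values of clusters, also in these tables, were not used. For 28W spleen the titles and the age entry disagree (the entry gives 12 weeks), and groups follow the titles.

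Each column held whole multiples of 1 step, the value of 1 UMI, and dividing by it gave whole numbers (within 0.001) for 100% of values. UMIs were summed over clusters and divided by the library total (CPM). Because the 3 tables were scaled separately, levels set across them rest on this rescaling. Log2 ratios used a pseudocount of 1 CPM, which understates changes of low genes, over genes with at least 20 UMIs in both libraries together. Intervals are 95% limits, exact Poisson for levels and the exact binomial split of UMIs for folds, and cover counting error only. With 1 library per group no p-value was computed. Every member was named in full, with the 3 most alike genes of each, and of each pathway list the genes past 2-fold at 10 CPM or more in either library, or else the highest and lowest; a few others were named after their values were seen. Some genes of the lists are not reported here by name. Members and lists were chosen with earlier results of these data known. Coordinates came from GENCODE M21 (GRCm38). Python 3.11.15, numpy 2.4.6, pandas 2.3.3 and scipy 1.17.1 were used, and the scripts were tested on simulated data.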

Additional observations from a re-analysis of the deposited data

How the results depend on the processing

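Of 147 member values over 10 alternative settings and 1 chosen after seeing the data (leaving out 28W kidney cluster 8), 95 stayed within their interval, 47 moved beyond it and 5 changed sign. The median log2 ratio for age, 0.85, was 0.95 with median gene ratio scaling, 0.97 as a median over clusters, 1.13 and 0.76 with pseudocounts of 0.1 and 10 CPM, and 0.96 without the cluster highest in proliferation genes, which was also the cluster with most UMIs per cell, in each library. The median for organ, 0.41, was 0.24 when ribosomal protein, mitochondrial and T cell receptor genes left the total, 0.18 as mean UMIs per cell, 0.017 as a median over clusters, 0.024 without marked clusters and −0.037 without kidney cluster 8. The organ ratio of *Pim1*, 0.95, was −0.10 as a median over clusters, −0.26 without marked clusters and −0.19 without kidney cluster 8, and that of *Bcl3*, −0.032, was 0.017 as a median over clusters and 0.024 without marked clusters. For *Pim1*, leaving out kidney cluster 8 alone, the setting chosen after seeing the data, was enough to change the sign. The cause of the changes of sign was not tested. No paired analysis was possible because the tables pool the 4 labelled samples of a group, which may be lanes of 1 library, and for the same reason no replicate could be left out. Depth limits *Socs2* most, with 10 UMIs in 12W spleen.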

Other observations

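Across clusters, on log2(CPM + 1) centred within library, the feedback genes also differed in which cell programmes they accompanied. *Socs1* went with a list of 6 interferon-stimulated genes (*Ifit1*, *Isg15* and others) at r = 0.46 over 33 clusters and 0.56 over the 25 unmarked clusters, with cytotoxic genes (*Gzmk*, *Nkg7*, *Ccl5* and others) at 0.45 and 0.58, and against proliferation genes (*Mki67*, *Top2a* and others) at −0.58 and −0.42. *Cish* went with the cytotoxic list at 0.56 and 0.63. The interferon-stimulated list summed to 215 CPM in 12W spleen, 521 CPM in 28W spleen and 783 CPM in 28W kidney, and the cytotoxic list to 1922, 5021 and 10756 CPM. Clusters of a library share its depth, so the values are descriptions. Of the dissociation list, *Hspa1a* was at 2.65 CPM in 12W spleen, 24.9 CPM in 28W spleen and 670 CPM in 28W kidney, while *Fos* was at 123, 459 and 196 CPM in the same order.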
